A study of Mus musculus with 39 samples.

Results

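Mt1 and Mt2 encode metallothionein 1 and metallothionein 2, the small metal-binding proteins that mouse liver makes in large amounts. They were the 2 members taken from the 11873 genes of a table of RNA-seq read counts from mouse liver, and both were measured in all 36 libraries analysed here. The pair was chosen by its own levels in these libraries, first by the levels in livers without Bmal1 at 21% oxygen and then with the values of all 12 groups in view. The levels and changes of Mt1 and Mt2 are therefore given as a description, with standard errors and without a test.

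The mice were C57BL/6 animals of 3 to 5 months, kept for 2 weeks in 12 h of light and 12 h of dark with food ad libitum, with the lights left off on the day of the experiment. They breathed 21% or 6% oxygen for 4 h, starting at circadian time (CT) 4 or CT16. CT4 and CT16 therefore name the start of the exposure and not its end. The control genotype, called Alb here, carried Alb-Cre, a Cre recombinase under the albumin promoter, which is active in hepatocytes. The HLKO genotype was Alb-Cre+ Hif1afl/fl, with Hif1a, the oxygen-regulated subunit of hypoxia-inducible factor 1, as the floxed gene. The BLKO genotype was Alb-Cre+ Bmal1fl/fl, with the clock gene Bmal1 (Arntl) as the floxed gene. All groups carried Cre, and in both knockouts the other liver cells keep the floxed gene, since the albumin promoter drives Cre in hepatocytes. Each of the 12 combinations of genotype, time and oxygen had 3 libraries, called A, B and C. Nothing in the sources used here says more of how the 3 differ, so the spread within a group may be partly technical.

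Metallothioneins hold zinc and copper through cysteine residues and can also bind toxic metals such as cadmium. Their transcription in liver follows free zinc through the zinc-sensing factor MTF-1, encoded by Mtf1, which binds short promoter sequences called metal response elements. Glucocorticoids, interleukin-6 acting through STAT3, oxidative stress and low oxygen are also known to raise metallothionein transcripts, and in the acute phase response the liver takes up zinc from the blood.

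The 2 genes lie next to each other on the plus strand of chromosome 8 in GRCm38, Mt2 at chr8:94172664-94173568 and Mt1 at chr8:94179082-94180327, with 5513 bases between them. Each has 3 exons in its main transcript, which is 549 bases long for Mt1 and 511 for Mt2. The main transcripts were identical at 71.1% of 488 aligned bases and shared no run longer than 20 bases, and neither shared a stretch of 50 bases with another annotated gene on its strand. Of the 50-base stretches of Mt2, 45.5% lie on the opposite strand of the antisense gene Gm45774. The strand setting of the counting is not given in the sources used here, so reads of Gm45774 and Mt2 cannot be told apart.

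The bases before each start are shown because the core of the metal response element, TGCACNC or TGCGCNC on either strand, can be read in them. They are the 250 bases upstream of the RefSeq start, on the plus strand of GRCm38.p6, 5′ to 3′, at chr8:94172368-94172617 for Mt2 and chr8:94178839-94179088 for Mt1, with each core in capitals.
Mt2: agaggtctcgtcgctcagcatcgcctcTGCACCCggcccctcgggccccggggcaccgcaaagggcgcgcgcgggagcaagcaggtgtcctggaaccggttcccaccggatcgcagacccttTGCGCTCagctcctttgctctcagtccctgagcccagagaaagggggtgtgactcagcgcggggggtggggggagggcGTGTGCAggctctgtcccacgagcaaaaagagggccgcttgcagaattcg
Mt1: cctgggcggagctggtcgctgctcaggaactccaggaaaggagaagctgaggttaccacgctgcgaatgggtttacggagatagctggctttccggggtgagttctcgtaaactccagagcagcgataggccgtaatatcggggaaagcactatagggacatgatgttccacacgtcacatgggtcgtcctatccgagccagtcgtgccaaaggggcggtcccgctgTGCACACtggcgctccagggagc
The printed stretch held 3 cores for Mt2 and 1 for Mt1. In the whole RefSeq window, which runs on to 50 bases after the start, there were 4 cores for Mt2 and 3 for Mt1, while 1.97% of 32851 mouse promoters of that length held at least 3. The annotation also has starts further downstream, 242 bases after the RefSeq start for Mt2 and 152 for Mt1, and the 250 bases before those held 4 and 5 cores. Of the other motifs searched on both strands, the E-box CACGTG (in 7.15% of promoters), the glucocorticoid receptor motif AGAACA (19.0%) and the STAT motif TTCNNNGAA (8.30%) had no match in either window. The hypoxia response element core ACGTG occurred once in the Mt1 window and is in 19.6% of promoters, and GCGTG occurred once for Mt1 and 2 times for Mt2 and is in 32.4%. A match is a run of letters and not a measured binding site.

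Library totals ran from 1717589 to 5196957 counts over genes, and 10813 to 11693 genes had a count. Mt1 itself had 183 to 19562 counts and Mt2 152 to 25599, so counting error is small beside the spread between libraries. Levels below are CPM, counts scaled to library size with TMM, and changes are differences of log2 level ± standard error (SE) from a fit of edgeR over all 36 libraries and 9483 tested genes. Library A of Alb CT4 21% and library A of Alb CT16 6% stood apart from the other libraries of their groups over all genes. Values of Mt1 and Mt2 without these libraries are given beside the comparisons that use them. Whole-gene counts of Hif1a and Arntl were low and overlapped between genotypes, with Hif1a at 1.89 to 15.0 CPM in Alb and 0 to 9.57 CPM in HLKO, and Arntl at 2.44 to 22.1 CPM in Alb and 6.07 to 14.5 CPM in BLKO. The floxed exons cannot be read from counts of the whole gene, so these values check neither label. Hepatocyte markers were high in every library, at 61595 to 115101 CPM summed. In whole liver, fewer cells of a type and less RNA per cell cannot be told apart.

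Mt1 and Mt2 were high in all libraries at 6% oxygen and low in most at 21%, with libraries A and B of BLKO CT4 as the main exceptions. At 6% oxygen the lowest of 18 libraries had 1235 CPM of Mt1, and 2 of the 18 libraries at 21% exceeded it, both from BLKO at CT4. For Mt2 the lowest library at 6% had 1134 CPM, and 3 libraries at 21% exceeded it. These were A and B of BLKO CT4 and A of HLKO CT4, the last at 1409 CPM. Together the pair took 0.0100% of a library's counts at the least and 1.06% at the most. By mean ± SD (n = 3), Mt1 was highest in Alb CT16 6% at 3635 ± 1008 CPM, and Mt2 was highest there too, at 5529 ± 1606 CPM. Both were lowest in BLKO CT16 21%, at 70.1 ± 15.0 CPM for Mt1 and 55.7 ± 20.9 CPM for Mt2. In the order of the 12 group means of Mt1, the 6 groups at 6% oxygen and BLKO CT4 21% took the first 7 places. The last of these, BLKO CT16 6%, did not overlap the next group, HLKO CT16 21%, and all other neighbours in the order of Mt1 overlapped. For Mt2 the same 7 groups came first, and of all neighbours only HLKO CT16 21% and Alb CT4 21% did not overlap.

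**Figure D1:**
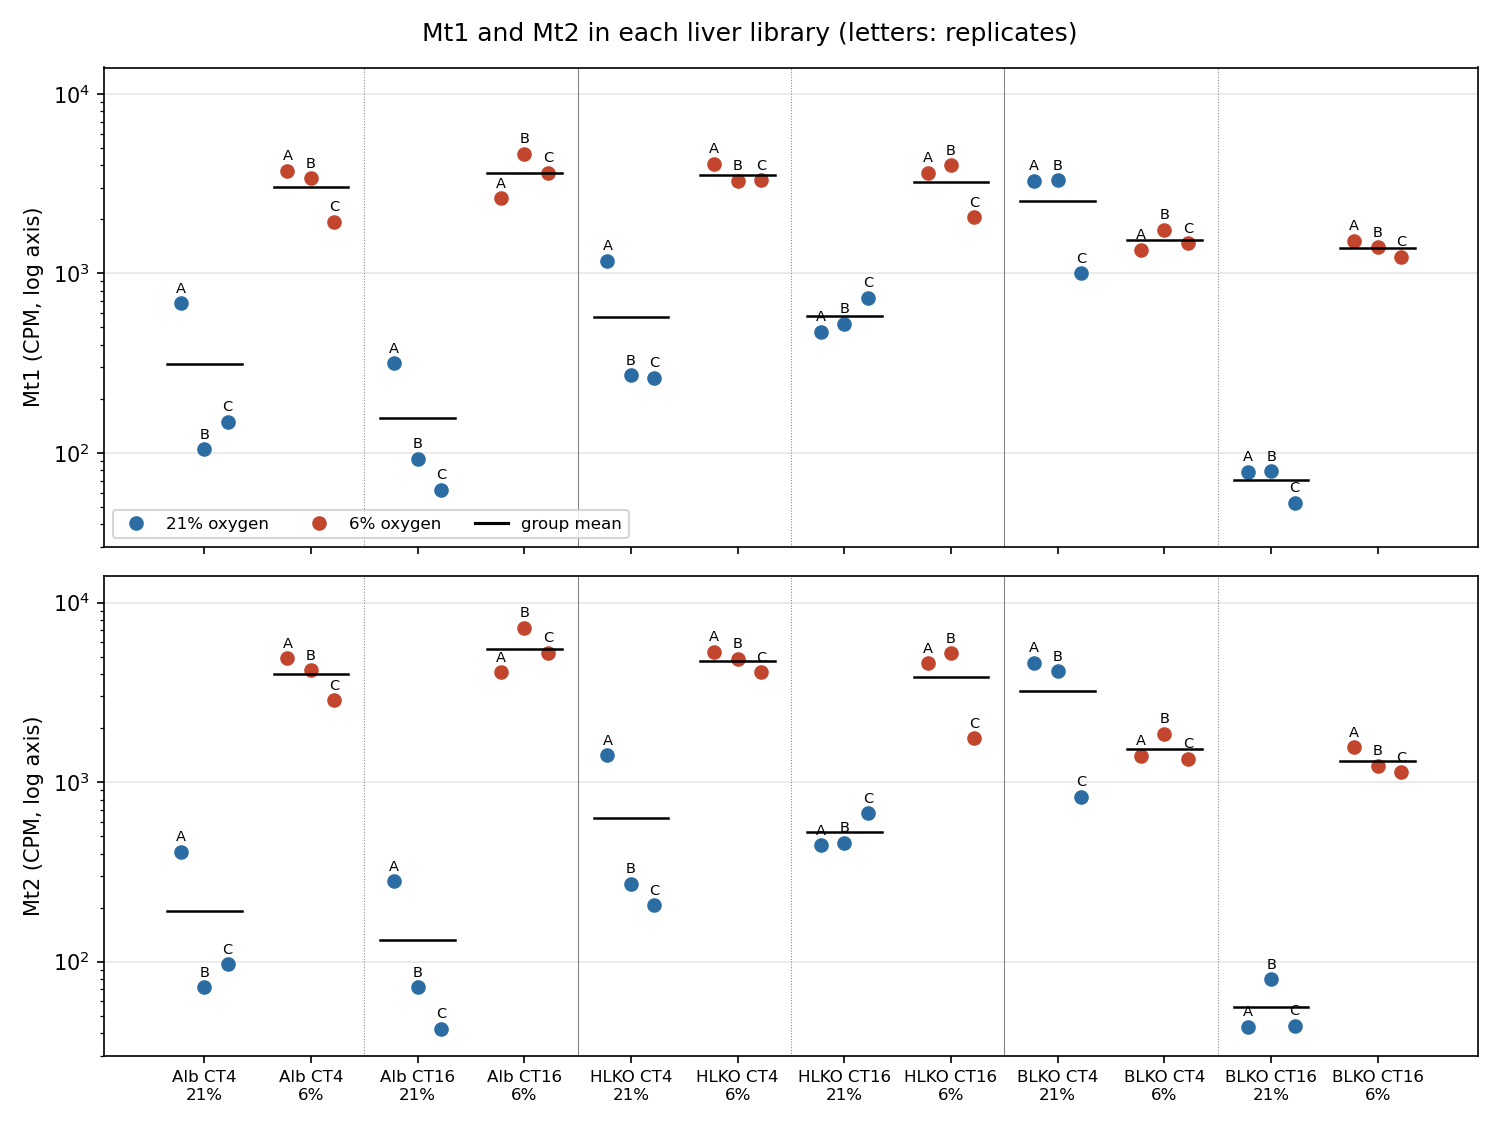
Level of Mt1 and Mt2 in each of the 36 libraries, in CPM on a log axis, by group, with each point a library and the bar the group mean. Libraries A and B of BLKO at CT4 and 21% oxygen lie among the libraries at 6% oxygen. Library C of that group, at 829 CPM for Mt2, lies below all libraries at 6%.

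The 6 comparisons of oxygen levels ask what 4 h at 6% oxygen does to the liver of each genotype at each time. In Alb at CT4, Mt1 stood at 682, 104 and 149 CPM in libraries A, B and C at 21% oxygen and at 3733, 3381 and 1939.9 CPM at 6%. Mt2 stood at 409, 71.9 and 96.6 CPM and at 4910.2, 4217 and 2869.8 CPM. All 3 libraries at 6% oxygen lay above all 3 at 21%, and library A at 21% was the highest of its group for both genes. The log2 change was 3.28 ± 0.59 for Mt1, 9.70-fold higher, and 4.38 ± 0.71 for Mt2, 20.8-fold higher. Without library A at 21% the changes were 4.56 and 5.55. Of the 9483 genes, 9.16% passed an adjusted p of 0.05 in this comparison and 24.2% had groups that did not overlap, and since the choice of members used these values nothing is read from that.

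At CT16 in Alb, Mt1 stood at 315, 92.4 and 62.2 CPM at 21% oxygen and 2626, 4641 and 3638 CPM at 6%. Mt2 stood at 279.6, 71.9 and 42.4 CPM and 4082, 7257 and 5249 CPM. Again the groups did not overlap and library A at 21% stood above B and C. The log2 change was 4.54 ± 0.63 for Mt1 and 5.40 ± 0.75 for Mt2, or 23.3-fold and 42.3-fold. In this comparison 13.5% of genes were called and 29.9% had groups without overlap. Without library A of Alb CT16 6% the changes were 4.73 and 5.58, and without library A of Alb CT16 21% 5.56 and 6.61. Mt2 ranked 4 and Mt1 10 of 9483 genes by absolute log2 change.

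HLKO livers also had more of both transcripts at 6% oxygen. In HLKO at CT4, Mt1 went from 1174, 271 and 261 CPM at 21% oxygen to 4068, 3269 and 3307 CPM at 6%. Mt2 went from 1409, 272 and 206 CPM to 5323, 4861 and 4085 CPM. The groups did not overlap, although library A at 21% was several times higher than B and C. The log2 changes were 2.65 ± 0.58 and 2.92 ± 0.66, and 14.4% of all genes were called and 34% did not overlap. Without library A of HLKO CT4 21% they were 3.72 and 4.30. In HLKO at CT16, Mt1 was 472, 523 and 730.2 CPM at 21% and 3632, 3995 and 2054 CPM at 6%. Mt2 was 444, 459 and 673 CPM and 4601, 5219 and 1760.4 CPM. These groups did not overlap, and library C at 6% was the lowest of its group for both genes. The log2 changes were 2.49 ± 0.57 and 2.88 ± 0.66, with 9.74% of genes called and 25.1% without overlap.

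In BLKO livers the oxygen difference was large at CT16, and at CT4 the groups overlapped. In BLKO at CT4, Mt1 was already at 3276, 3292 and 999 CPM at 21% oxygen and was at 1354, 1746 and 1467 CPM at 6%. Mt2 was at 4623, 4163 and 829 CPM and 1402, 1863 and 1348 CPM. Libraries A and B at 21% lay above all 3 at 6% and library C below them, so the groups overlapped. The log2 differences were -0.73 ± 0.54 and -1.06 ± 0.62, and 4.63% of all genes were called. In BLKO at CT16, Mt1 was 78.4, 79.0 and 52.8 CPM at 21% and 1522, 1393 and 1235 CPM at 6%. Mt2 was 43.4, 79.9 and 43.9 CPM and 1570.0, 1234 and 1134 CPM. The groups were far apart, with every library at 6% oxygen well above every library at 21%. The log2 changes were 4.30 ± 0.63, 19.7-fold, and 4.56 ± 0.72, 23.6-fold, with 9.4% of genes called and 27.5% without overlap.

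The oxygen changes of BLKO and Alb were set against each other as differences of log2 changes. At CT4 BLKO minus Alb was -4.01 ± 0.80 for Mt1 and -5.44 ± 0.93 for Mt2, and -5.30 and -6.62 without library A of Alb CT4 21%. At CT16 it was -0.24 ± 0.78 and -0.84 ± 0.90, within about 1 SE, and -1.26 and -2.04 without library A of Alb CT16 21% or -0.45 and -1.04 without library A of Alb CT16 6%. HLKO minus Alb gave -0.63 ± 0.77 for Mt1 and -1.46 ± 0.88 for Mt2 at CT4, from -1.91 and -2.63 without library A of Alb CT4 21% to 0.45 and -0.074 without library A of HLKO CT4 21%. At CT16 it gave -2.05 ± 0.78 and -2.53 ± 0.89, and -3.07 and -3.73 without library A of Alb CT16 21% or -2.25 and -2.71 without library A of Alb CT16 6%. In that last pair the levels at 6% oxygen overlapped between HLKO and Alb, and it was the 21% levels that lay apart.

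The 6 comparisons of CT16 with CT4 ask whether the time of day at which the exposure started sets the level. At 21% oxygen the pair was lower at CT16 in BLKO, where Mt1 changed by -5.17 ± 0.65 and Mt2 by -5.85 ± 0.77 on the log2 scale, or 35.9-fold and 57.7-fold lower. The groups did not overlap, as for 21.3% of all genes, and 2.19% of all genes were called. In Alb at 21% oxygen the same differences were -0.997 ± 0.56 and -0.55 ± 0.64, with overlapping libraries and 1.27% of genes called. Without library A of Alb CT4 21% they were 0.29 and 0.62, and so changed sign. In HLKO at 21% they were 0.02 ± 0.55 and -0.26 ± 0.62, again overlapping, with 11.9% of genes called, and without library A of HLKO CT4 21% they were 1.09 and 1.12. At 6% oxygen the time differences were small in every genotype. They were 0.27 ± 0.54 for Mt1 and 0.47 ± 0.62 for Mt2 in Alb, where 4.41% of genes were called, and 0.47 and 0.66 without library A of Alb CT16 6%. In HLKO they were -0.14 ± 0.54 and -0.30 ± 0.62 (9.81% of genes called), and in BLKO -0.14 ± 0.54 and -0.23 ± 0.62 (3.35%).

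The 8 comparisons of a knockout with Alb gave their largest difference in BLKO at CT4 and 21% oxygen. It was 3.02 ± 0.59 higher in Mt1 and 4.06 ± 0.70 higher in Mt2 on the log2 scale, with no overlap, as for 23.7% of all genes, and 7.44% of all genes called. Without library A of Alb CT4 21% the Mt1 value was 4.31 and the Mt2 value 5.24. At CT16 the BLKO difference was -1.15 ± 0.57 and -1.23 ± 0.65, with overlap and 5.38% of genes called. Without library A of Alb CT16 21% these became -0.13 and -0.03. HLKO at CT16 lay above Alb without overlap, by 1.88 ± 0.57 and 2.01 ± 0.65, while 24.6% of all genes did not overlap and 3.56% were called. Without the same library these were 2.90 and 3.21. HLKO at CT4 gave 0.87 ± 0.55 and 1.71 ± 0.64 with overlap, where 9.71% of genes were called. Library A was the highest of its group in both HLKO CT4 21% and Alb CT4 21%, and without the one of HLKO the Mt1 difference was -0.22, without the one of Alb 2.15. The Mt2 difference kept its sign in all 11 alternatives, at 0.33 to 2.88.

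At 6% oxygen the HLKO libraries overlapped those of Alb. The differences were 0.23 ± 0.54 and 0.25 ± 0.61 at CT4 (3.5% of genes called) and -0.17 ± 0.54 and -0.52 ± 0.62 at CT16 (9.88%), for Mt1 and Mt2. BLKO at 6% oxygen lay below Alb without overlap at both times. At CT4 the difference was -0.99 ± 0.55 for Mt1 and -1.38 ± 0.63 for Mt2, with 5% of genes called and 19.9% without overlap. At CT16 it was -1.39 ± 0.55 and -2.07 ± 0.64, with 9.45% of genes called and 24.3% without overlap. When library A of Alb CT16 6% was left out, the HLKO differences at CT16 were -0.36 and -0.69 and the BLKO differences -1.59 and -2.26. The HLKO difference of Mt1 at CT16 changed sign in 2 of 11 alternatives, to 0.054 without library B of Alb CT16 6% and 0.071 without library C of HLKO CT16 6%. The comparisons of oxygen, time and genotype share groups, so their values are not independent of each other.

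**Figure D2:**
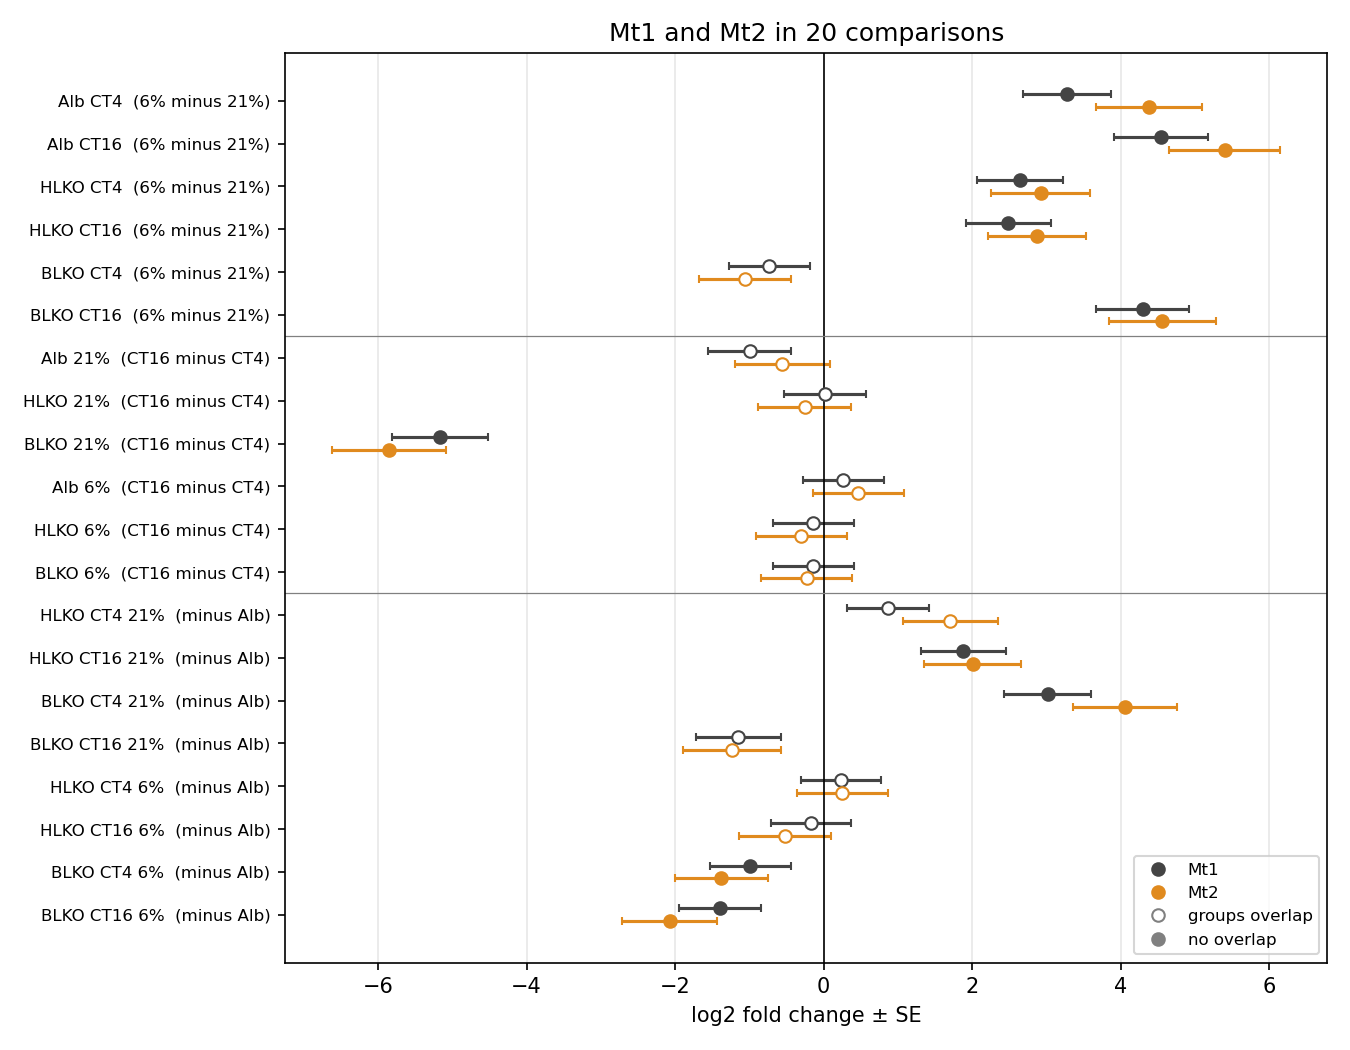
Log2 change ± SE of Mt1 and Mt2 in the 20 comparisons of oxygen, time and genotype. The oxygen changes lie between 2.49 and 5.40 in 5 of the 6 comparisons, and in BLKO at CT4 they are -0.73 and -1.06.

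The 2 genes moved together from library to library. Deviations of log2 level from the group mean had a Pearson r of 0.97 between Mt1 and Mt2 over 36 libraries, which share depth and scaling, and 8 of 12 groups had the libraries in the same order for both. At 21% oxygen the spread within groups was wide. The SD of the pair's mean log2 level was 1.39 in Alb CT4, 1.30 in Alb CT16, 1.36 in HLKO CT4 and 1.19 in BLKO CT4, while HLKO CT16 and BLKO CT16 had 0.330 and 0.361. At 6% oxygen it lay between 0.173 and 0.688. In 3 of the 4 wide groups library A was the high one, and in BLKO CT4 library C was the low one. Deviations of the pair had an r of -0.456 with deviations of log2 library total, and the part of depth in the spread was not tested.

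The balance between the 2 genes also differed between oxygen levels in Alb and in HLKO at CT4, and overlapped in the other comparisons. The count of Mt2 per count of Mt1, a ratio within a library that no scaling affects, ran from 0.554 to 1.56 with a median of 1.01. Per base of transcript it ran from 0.595 to 1.68. Reads of the antisense gene Gm45774 cannot be told apart from those of Mt2, and their part in the ratio was not tested. In Alb the ratio was 0.646 ± 0.0445 at 21% oxygen and 1.35 ± 0.119 at 6% at CT4, and 0.782 ± 0.104 and 1.52 ± 0.0673 at CT16, without overlap (mean ± SD, n = 3). In HLKO at CT4 it was 0.998 ± 0.207 and 1.34 ± 0.129, also without overlap. The libraries overlapped in HLKO at CT16, at 0.914 ± 0.0315 and 1.14 ± 0.249, and in BLKO at both times. BLKO had 1.17 ± 0.303 and 1.01 ± 0.0781 at CT4 and 0.799 ± 0.230 and 0.945 ± 0.0768 at CT16. Mt2 exceeded Mt1 in 19 of 36 libraries.

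**Figure D3:**
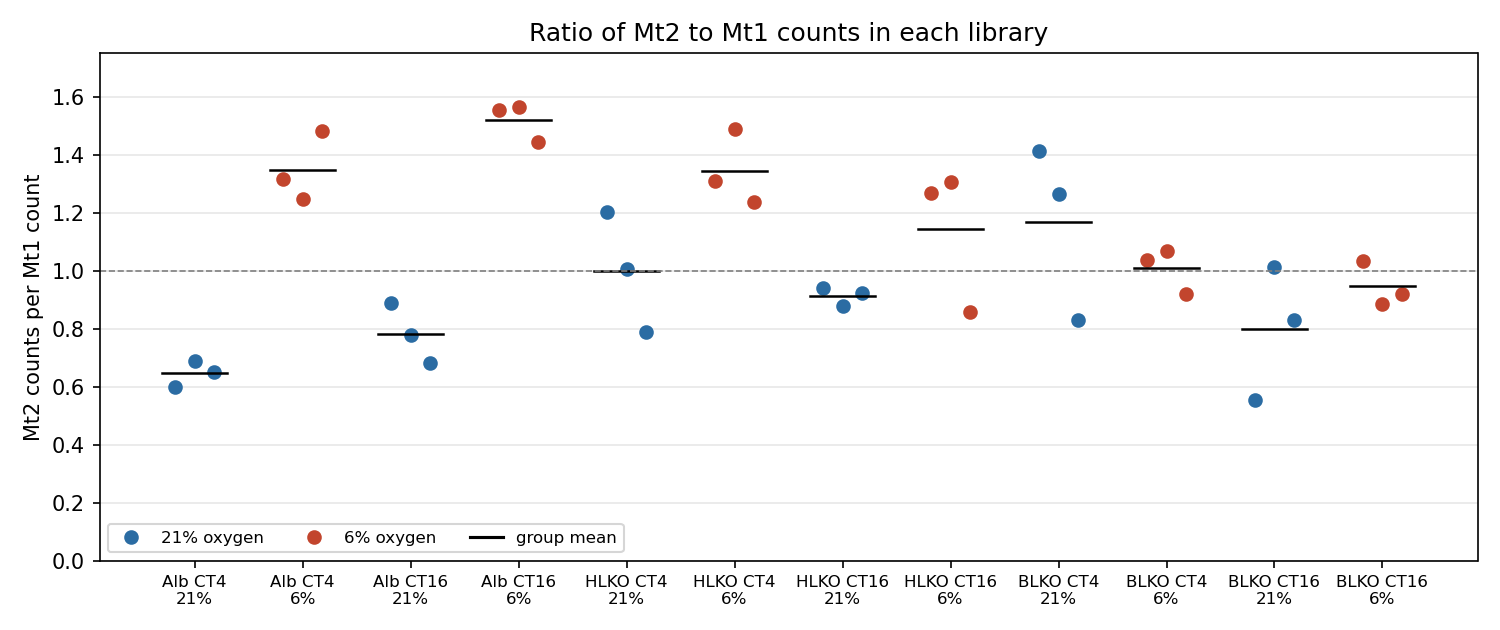
Ratio of Mt2 to Mt1 counts in each library by group, with points for libraries and bars for means. In Alb the libraries at 21% oxygen lie between 0.599 and 0.889 and those at 6% between 1.25 and 1.56.

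Other genes of the same stretch of chromosome 8 were read to see how far the pattern of the pair extends. Within 250 kb of Mt1 the annotation has 22 other genes, and Mt3 and Mt4 were not analysed here. Nudt21, Ogfod1, Bbs2 and Nup93 passed the test in 0 of 20 comparisons. Their group means were low, between 1.94 and 8.77 CPM, so a change could be missed. The lowest adjusted p among them, 0.0543, was that of Nup93 in Alb at CT16, with a log2 change of 1.34 ± 0.47 at 6% oxygen. Herpud1, a gene of the endoplasmic reticulum stress response, rose at 6% oxygen in all 6 comparisons, by 0.86 ± 0.14 in Alb at CT4 and 1.53 ± 0.15 in BLKO at CT16, and also by 0.94 ± 0.14 in BLKO at CT4. Its lowest adjusted p was 1.01e-08, by edgeR's quasi-likelihood test with Benjamini-Hochberg adjustment over 9483 genes, which is the test behind every adjusted p given here.

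Other genes of metal handling passed the test at about the rate of genes at large, which is no result about the list. Of 43 listed sensors, zinc transporters and copper proteins, 31 were tested, and the median log2 change of the list in the 6 oxygen comparisons lay between -0.13 and 0.01, against -0.02 to 0.03 over all genes. In Alb 2 rose and 2 fell at CT4, and 2 rose and 0 fell at CT16. In HLKO 1 rose and 4 fell at CT4, and 2 rose and 0 fell at CT16. In BLKO 1 rose and 1 fell at CT4, and 2 rose and 0 fell at CT16. Per comparison 2 to 5 of 31 passed, beside 4.63% to 14.4% of all genes, and over all alternatives these counts lay between 0 and 5. Slc39a14, a zinc and iron importer of hepatocytes that is also on the acute phase list, rose in 4 of the 6, among them HLKO at CT16 by 0.91 ± 0.16 (adjusted p = 0.000276), from 129 ± 11.5 to 242 ± 41.6 CPM. In Alb it rose by 0.65 ± 0.16 at CT4 (adjusted p = 0.00754, and 0.0765 without library B of Alb CT4 21%) and by 0.66 ± 0.16 at CT16 (adjusted p = 0.00457, and 0.0517 without library B of Alb CT16 21% and 0.0631 when only the compared groups were fitted). In BLKO at CT16 the rise of 0.54 ± 0.16 (adjusted p = 0.0286) was lost when any 1 of the 6 libraries compared other than C at 21% was left out, with adjusted p from 0.053 to 0.163. In HLKO at CT4, where Mt1 and Mt2 were higher at 6% oxygen, its rise did not pass the test. It stood there at 192 ± 7.42 CPM at 21% and 232 ± 15.8 CPM at 6%. In BLKO at CT4, where Mt1 and Mt2 were not higher at 6% oxygen, its change was -0.22 ± 0.16 (adjusted p = 0.562). From CT4 to CT16 at 21% oxygen in BLKO it fell by 0.83 on the log2 scale (SE 0.16, adjusted p = 0.0036), from 172 ± 29.9 to 96.9 ± 12.0 CPM.

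Mtf1 and Slc30a1, the zinc sensor and the zinc exporter that MTF-1 is known to induce, had within-group r of -0.08 and -0.11 with the pair. Across the 12 group means their r were -0.676 and 0.315. For Mtf1 the latter measure was -0.53 among the groups at 21% oxygen and 0.661 among those at 6%. Mtf1 was low, with group means of 3.04 to 7.84 CPM, so counting error weighs on its values. Mtf1 was called in 1 of 20 comparisons, lower at 6% oxygen in Alb at CT4 (-1.29 ± 0.41, adjusted p = 0.0406), and that call was lost in 6 of 11 alternatives, without any 1 of 5 libraries (all but C of Alb CT4 21%, adjusted p from 0.0542 to 0.279) and when only the compared groups were fitted (0.0852). Slc30a1 was called in 0 of 20, with its lowest adjusted p, 0.058, in HLKO at CT4. Gclc, a glutathione synthesis gene that MTF-1 and NRF2 are known to induce, rose at 6% oxygen in HLKO at CT4 (1.06 ± 0.19, adjusted p = 0.000141) and in BLKO at CT4 (1.13 ± 0.19, adjusted p = 0.000229). The exporter Slc30a3 fell in HLKO at CT4 by 2.58 on the log2 scale (SE 0.50, adjusted p = 0.000429). Between genotypes the copper chaperone Atox1 was lower in HLKO than in Alb at CT4, with log2 differences of -0.81 ± 0.11 at 21% oxygen (adjusted p = 1.06e-05) and -0.94 ± 0.11 at 6% (adjusted p = 1.58e-06). Slc39a4, a zinc importer, was higher in HLKO than in Alb at CT16 and 21% oxygen (1.47 ± 0.26, adjusted p = 0.000661). Mt1 and Mt2 were also higher there. The mean of Slc39a4 was above that of Alb where the pair was not higher, too. It was 145 ± 12.2 CPM in HLKO CT16 6% and 71.8 ± 31.7 CPM in Alb CT16 6%. At CT16 and 21% oxygen it was 129 ± 34.0 CPM in BLKO and 63.4 ± 7.10 CPM in Alb. Of the 56 calls of metal handling genes over 20 comparisons, 18 held in every alternative, and the genes given here without a remark are among them.

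**Figure D4:**
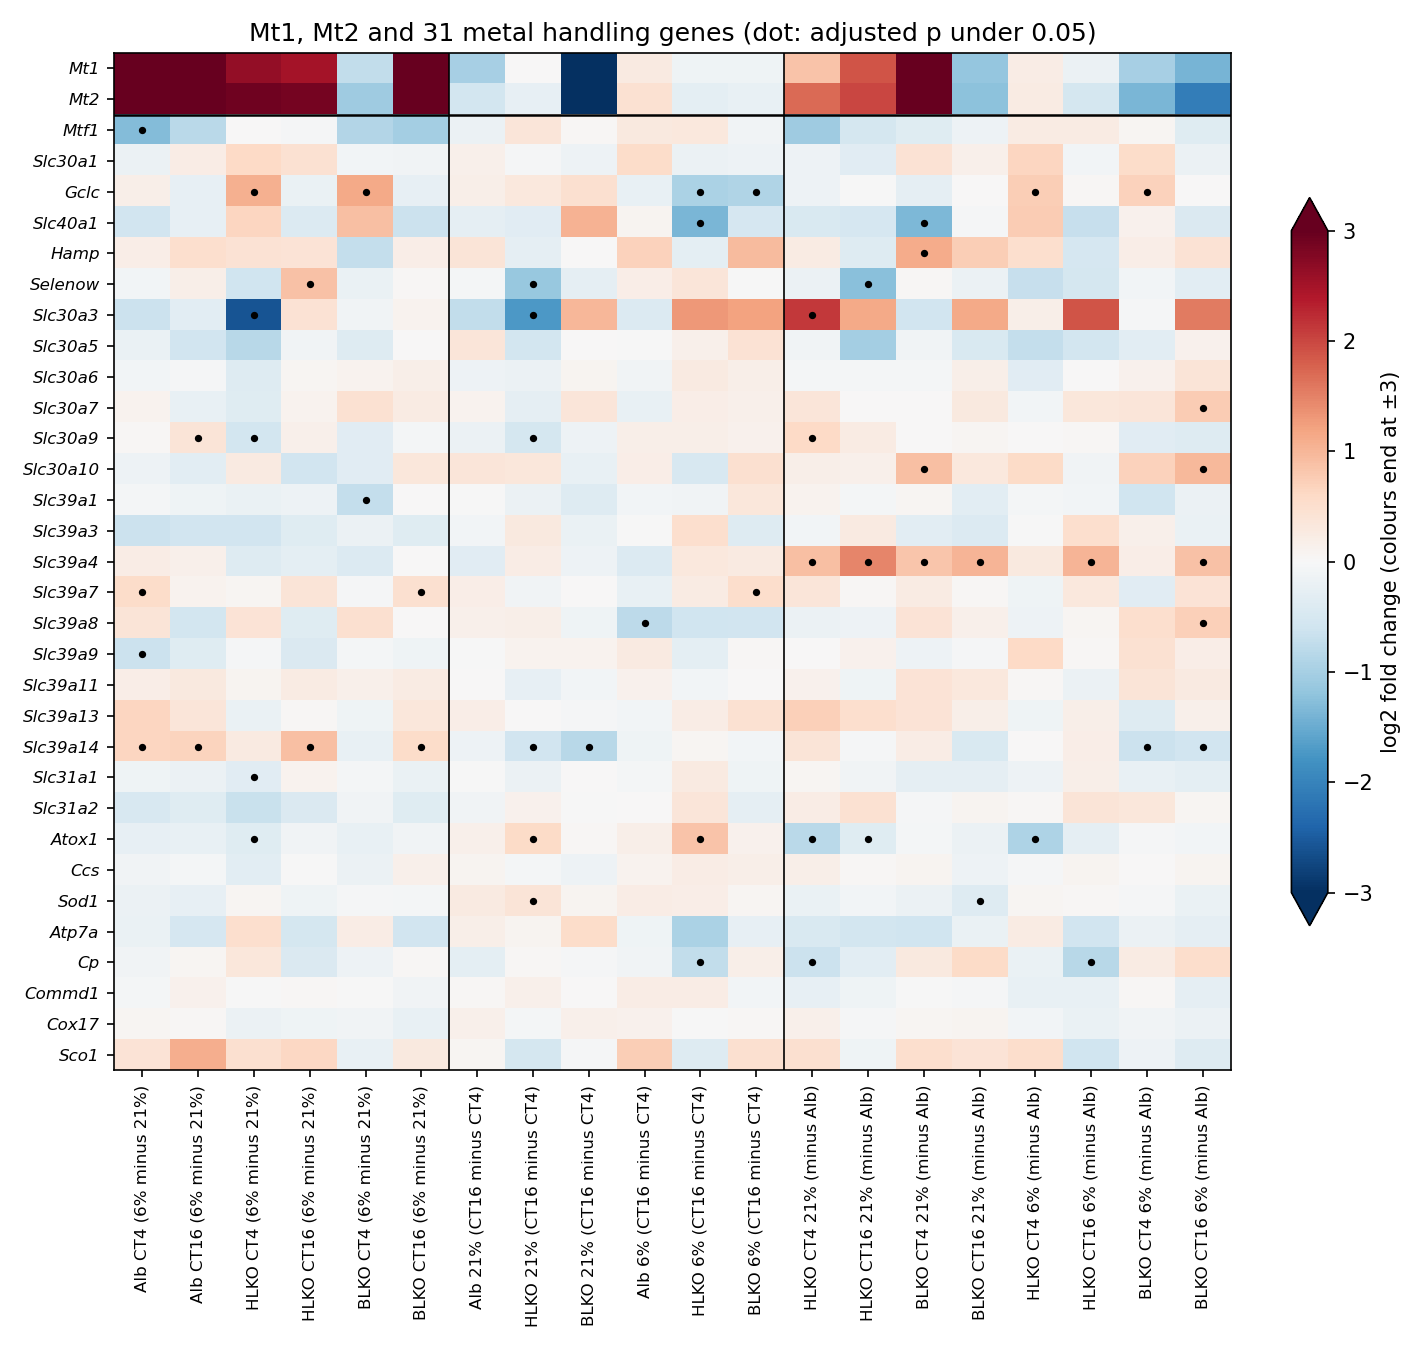
Log2 change of the tested metal handling genes, Mt1 and Mt2 in the 20 comparisons, on a colour scale that ends at 3, with a dot where a list gene passed the test. The rows of Mt1 and Mt2 carry no dot, since no test was read for them.

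Known inducers of metallothioneins were followed through lists of their other targets, and their part in the levels of the pair was not tested. Glucocorticoid targets rose at 6% oxygen in Alb, with 7 of 14 higher and 0 lower at CT4 (list median 0.68, 9.16% of all genes called) and 7 higher and 1 lower at CT16 (0.99, 13.5%). In HLKO at CT4 10 rose and 0 fell (1.08, 14.4%). In Alb at CT4 these held Per1, a clock gene, at 1.94 ± 0.24 (adjusted p = 1.02e-06), and the amino acid enzymes Sds at 1.47 ± 0.21 (adjusted p = 1.46e-05) and Tat at 1.21 ± 0.18 (adjusted p = 2.66e-05). In HLKO at CT16, where the pair was also higher at 6% oxygen, 3 rose and 3 fell (-0.30, 9.74%), with Fkbp5 at -1.45 ± 0.22 (adjusted p = 4.24e-05). In BLKO at CT4, where the pair was not higher, 6 rose and 1 fell (0.24, 4.63%). In BLKO at CT16 5 rose and 1 fell (0.19, 9.4%), and 3 rose and 0 fell without library B or without library C of BLKO CT16 21%.

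The glucocorticoid list was also read beside the pair between times and between genotypes. From CT4 to CT16 at 21% oxygen in HLKO, 10 of 14 rose and 0 fell (median 1.19, 11.9% of all genes called), while Mt1 and Mt2 changed by 0.02 and -0.26. In BLKO, where the pair was lower at CT16, 2 rose and 1 fell (0.13, 2.19%), or 4 and 1 by DESeq2. In Alb, where the libraries of the pair overlapped, 1 rose and 0 fell (0.08, 1.27%). In HLKO against Alb at CT16 and 21% oxygen, where the pair was higher, 7 rose and 0 fell (0.90, 3.56%). In BLKO against Alb at CT4 and 21% oxygen, where the pair was also higher, 3 were higher and 0 lower (0.16, 7.44%). Several of these genes are also known to answer other signals, Ddit4 to low oxygen and Cdkn1a to p53.

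In BLKO between CT4 and CT16 at 21% oxygen, where the pair was lower, 0 of 26 genes of the acute phase and interleukin-6 list rose and 8 fell (median -0.82, 2.19% of all genes called). Without library A or without library B of BLKO CT4 21% 4 fell, and without library A or C of BLKO CT16 21% 5 fell. The metalloreductase Steap4 at -2.27 ± 0.37 (adjusted p = 0.000411), the receptor Il1r1 at -1.66 ± 0.31 (adjusted p = 0.00224) and the transcription factor Stat3 at -1.16 ± 0.23 (adjusted p = 0.0036) held in every alternative. Under 6% oxygen in BLKO at CT4, 0 rose and 7 fell (median -0.81, 4.63%), with Steap4 at -2.63 ± 0.38 (adjusted p = 4.15e-05), and 17 fell when only the compared groups were fitted.

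Other counts of the acute phase list changed with single libraries. In BLKO against Alb at CT4 and 21% oxygen, 7 were higher and 1 lower (median 0.26, 7.44% of all genes called), but 2 to 3 were higher when library B or C of Alb, library A or B of BLKO was left out or only the compared groups were fitted. At CT4 and 6% oxygen 0 were higher and 11 lower (-0.76, 5%), with 1 lower without library A of Alb CT4 6%, 5 without library A of BLKO CT4 6% and 3 without B or without C of it. Under 6% oxygen in Alb at CT4, 1 rose and 2 fell (0.21, 9.16% of all genes called). Without library A of Alb CT4 21%, in which the pair was high too, 10 rose and 1 fell. At CT16 in Alb, 6 rose and 2 fell (0.51, 13.5%). Without library A of Alb CT16 6%, 14 rose and 1 fell. Without library B or C of Alb CT16 21% or B of Alb CT16 6%, 2 rose. In HLKO at CT4, where the pair was higher at 6% oxygen, 1 rose and 3 fell (-0.28, 14.4%). When only the compared groups were fitted, 1 rose and 10 fell. Without library A of HLKO CT4 21%, 0 rose and 2 fell, and without A of HLKO CT4 6%, 0 rose and 1 fell. In HLKO at CT16 (9.74%) and in BLKO at CT16 (9.4%) 1 rose and 1 fell, with 0 to 2 in all under the alternatives.

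Of the NRF2 targets, genes of the oxidative stress response, 14 were tested, and 4.63% to 14.4% of all genes were called in the oxygen comparisons. In HLKO at CT4 5 rose and 0 fell (median 0.43), and at CT16 2 rose and 0 fell, or 1 and 0 without library B or C of HLKO CT16 21%. In Alb 0 rose and 1 fell at CT4, a call that 4 of 11 alternatives lost, and 2 rose and 1 fell at CT16, where the count was 0 without library A or C of Alb CT16 21% or C of Alb CT16 6%. In BLKO 1 rose and 0 fell at CT4 and 0 rose and 0 fell at CT16. In BLKO against Alb at CT4 and 21% oxygen, where the pair was higher, 2 were higher and 3 lower (median -0.11, 7.44% of all genes called). From CT4 to CT16 at 21% oxygen in BLKO, where the pair was lower, 0 rose and 0 fell (0.16, 2.19%).

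Genes were ranked by how closely they followed the pair's mean log2 level, over 8392 candidate genes. Across the 12 group means, Cd14, a lipopolysaccharide co-receptor known from macrophages, had a Pearson r of 0.941 and 1810055G02Rik 0.938. Nos3, Sugp1, Cebpb and Kdm4a were the next 4, at 0.90 or above, and 137 genes reached 0.8. Cebpb, a liver transcription factor, ran from 252 ± 35.9 CPM in BLKO CT16 21% to 1056 ± 87.9 CPM in HLKO CT4 6%. Within oxygen levels these correlations differed, and Sugp1 had 0.168 among the 6 groups at 6% oxygen. The neutrophil marker S100a9, below the minimum of 5 CPM for candidates, had an r of 0.912 across group means, 0.294 among the groups at 6% oxygen and 0.571 within groups.

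Inside groups the pair's deviations went with another set. Over 36 libraries the highest r were Slc41a2, a magnesium transporter, at 0.819, and Serpina3n, an acute phase serpin, at 0.805. Prtn3, a protease known from neutrophils, Stat3, Cpn2 and Orm3 followed at 0.76 or above. Prtn3 and Orm3 were low, with group means of 0 to 18.6 and 0.657 to 18.8 CPM. In Alb CT4 21%, where library A had the most Mt1, Serpina3n was 882, 291 and 387 CPM in A, B and C and Slc41a2 was 33.2, 5.48 and 7.31 CPM. In BLKO CT4 21%, where library C had the least, Serpina3n was 1192, 1231 and 698 CPM and Slc41a2 was 19.1, 15.1 and 2.98 CPM. The r of Serpina3n without library A of Alb CT4 21% and of HLKO CT4 21% was 0.759, and it was 0.898 at 21% oxygen and 0.490 at 6%. Of the acute phase list, 14 of 26 genes had a within-group r over 0.5, beside 143 of 8392 genes, and the metal sensing list had 0 of 6. Some cell type markers ran the other way. For 3 markers of stellate cells and fibroblasts r lay between -0.712 and -0.018, and for 6 of Kupffer cells between -0.411 and -0.039. The lowest r of the 8392 genes was -0.714. Libraries of a group share their condition, and depth also differs between them, so these values describe and do not test.

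**Figure D5:**
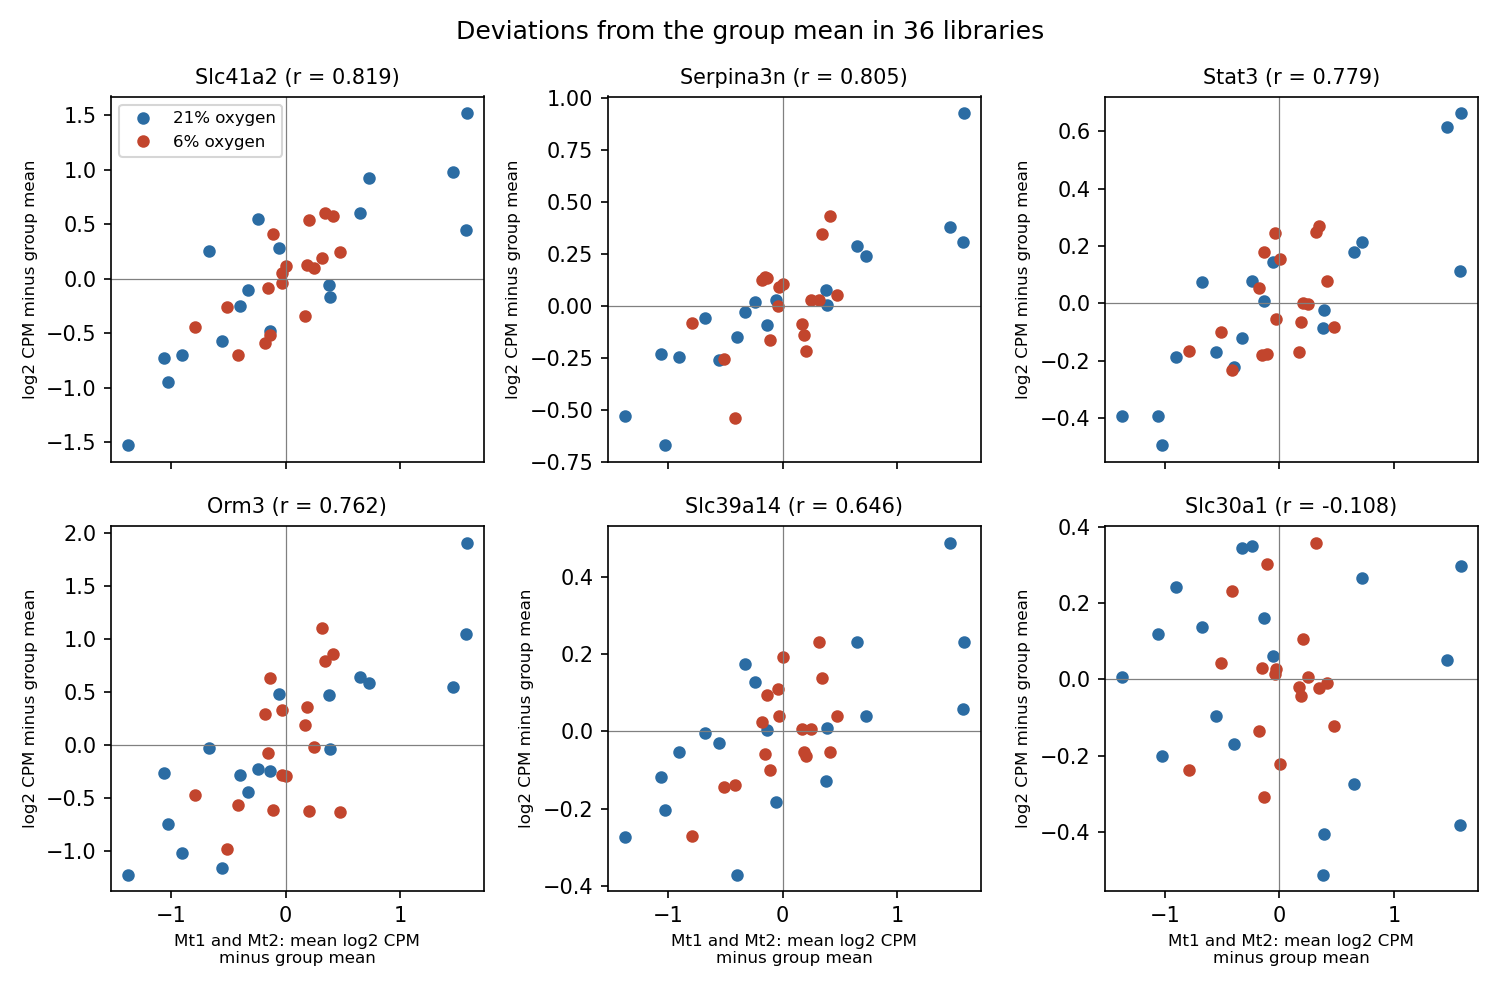
Deviation of log2 level from the group mean in each of the 36 libraries, Mt1 and Mt2 averaged on the x axis and a named gene on the y axis, with libraries at 21% and 6% oxygen marked apart. Serpina3n, Stat3 and Slc41a2 rise with the pair, and Slc30a1 has an r of -0.11.

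Markers of other cells were read beside these results. In Alb at CT4, 4 of 6 Kupffer cell markers rose at 6% oxygen (9.16% of all genes called), with a median of 1.13 and a summed level of 139 to 237 CPM at 21% and 267 to 475 CPM at 6%. Leaving out library A of Alb CT4 21% or C of Alb CT4 6% left 1 higher, and leaving out B of Alb CT4 21% left 2. Of 6 endothelial markers, 2 rose there too, or 1 without library B of Alb CT4 21%. In Alb at CT16 1 of 6 Kupffer cell markers rose (13.5% of all genes called). Without library A of Alb CT16 6%, 3 rose, and without any 1 of 4 other libraries 0 rose. At CT4 and 6% oxygen 4 of 6 were lower in BLKO than in Alb (5% of all genes called), or 2 without library C of Alb CT4 6%, and 3 of 6 lower in HLKO (3.5%), or 0 without library B or C of either group. The neutrophil markers were near 0, with 3 of 4 listed genes read and 0.228 to 8.82 CPM summed per library. Of them S100a9 rose at 6% oxygen in Alb at CT16 (2.98 ± 0.91, adjusted p = 0.0254, and from 0.0954 to 0.218 without library A or C of Alb CT16 21% or B of Alb CT16 6%). Lymphocyte and exocrine pancreas markers had 0 to 2.73 CPM summed. The part of these cells in the levels of Mt1 and Mt2 was not tested.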

How the data were processed

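The authors deposited raw read counts per gene symbol and, beside them, normalized signal values, which equal the counts times 1 constant per library and were not used. Per the submitters' processing notes, cutadapt, STAR 2.4.2a, HTSeq and DESeq2 were used with mm10. Strand setting, molecular identifiers and any gene filter are not given in the sources used here. The 3 double-knockout samples of the series were not analysed here. The counts of 36 libraries were fitted with edgeR 4.0.16 in R 4.3.3 (TMM, filterByExpr with a minimum count of 10, quasi-likelihood test, Benjamini-Hochberg over 9483 genes, threshold 0.05), with a mean per group. Log2 CPM used a prior count of 2. Alternatives were DESeq2 1.42.0, RLE scaling, no filter, fits of the compared groups only, the replicate block and each library left out. The fit was tested on simulated counts. Members and lists were chosen with earlier results of these data known. Named genes were the members, Mtf1, Slc30a1, genes within 250 kb of Mt1 (1 of them is not reported here), up to 4 called genes per list with the largest changes and at least 5 CPM (fewer are printed, by preference those that held in every alternative), and the 6 most like the pair by each measure. Sds and Tat were named after their values were seen. RefSeq gave the promoter windows and GENCODE the gene models. Figures were drawn with matplotlib 3.10.9.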

Additional observations from a re-analysis of the deposited data

How the results depend on the processing

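Leaving out libraries one at a time moved 7 log2 changes of Mt1 and 6 of Mt2 by more than the spread between replicates. For the oxygen change in Alb at CT4 they gave 2.85 to 4.56 for Mt1 and 3.98 to 5.55 for Mt2, and at CT16 4.16 to 5.56 and 4.98 to 6.61. The oxygen change in HLKO at CT4 ran from 2.29 to 3.72 and from 2.50 to 4.30. The time difference in HLKO at 21% oxygen ran from -0.33 to 1.09 and from -0.68 to 1.12. HLKO against Alb at CT16 and 21% oxygen gave 1.504 to 2.90 and 1.59 to 3.21, and BLKO against Alb gave -1.53 to -0.13 and -1.66 to -0.029. BLKO against Alb at CT4 and 21% oxygen gave 2.59 to 4.31 for Mt1. Sign changes under a left-out library occurred in differences within the overlap of the groups, of HLKO against Alb and between times in Alb and HLKO. The values farthest from the main ones came without library A of Alb CT4 21%, Alb CT16 21% or HLKO CT4 21%, and the cause was not tested. DESeq2, RLE scaling, no filter on low counts, fits of the compared groups only and the replicate block moved no change of the pair by more than that spread. With the replicate block the change of Mt1 in Alb at CT4 was 3.45 and that of Mt2 4.56. Library letters were not treated as pairs in the main fit, since in 0 of 20 comparisons did all 3 letters correlate above 0.1 over the tested genes. Single letters reached 0.205, between times in Alb at 21% oxygen. A link of only some letters or of few genes would not be seen this way. Calls of metal handling genes summed over the 6 oxygen comparisons were 17, with 14 to 19 when a library was left out, 16 with the replicate block and 11 when only the compared groups were fitted, where fewer samples set the spread. Counts of called genes in the other lists and differences between oxygen changes were also recomputed without single libraries, a choice made after seeing the data.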
